A study of Mus musculus with 4 samples.

Results

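The 81 genes described here are nuclear receptors, their co-regulators and the transcription factor families tied to fat cell formation, each measured allele by allele in mouse gonadal fat. They were taken by name, as the genes whose symbol begins with Ppar, Cebp, Klf, Srebf, Nr, Rxr, Esr, Ebf, Ncoa, Ncor, Med, Gata, Tcf or Smad (Nr, Klf, Ebf, Med, Gata, Tcf and Smad followed by a number), that is Rara, Rarb, Rarg, Thra or Thrb, or that is a numbered forkhead gene of the classes a, c, j, k, m, n, o and p, and that have at least 1 exonic SNP on chromosomes 1 to 19. The rule names no expression level or allele ratio, though it was set with earlier results of these data known. It needs a listed exonic SNP, and nearly all listed SNPs had reads, so genes without reads are largely left out. They are 81 of the 8016 autosomal genes with an exonic SNP. By family there are 21 nuclear receptors, 13 subunits of the Mediator complex, 11 forkhead factors, 8 Krüppel-like factors (KLF), 7 SMAD proteins, 7 genes named Tcf, 5 nuclear receptor co-regulators, 3 genes named Cebp, 2 EBF factors, 2 GATA factors, 1 SREBP gene and Nr2c2ap, which encodes a protein that binds the receptor Nr2c2 and is no receptor itself.

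Nuclear receptors are transcription factors that bind DNA directly and, in many cases, switch on when a hormone, sterol or fatty acid sits in their ligand pocket. Co-activators (Ncoa) and co-repressors (Ncor) join them, and the Mediator complex links them to RNA polymerase II. In fat cells PPARγ and C/EBPα hold the adipocyte program in place, the liver X receptors Nr1h2 and Nr1h3 sense sterols, SREBP proteins drive lipid synthesis genes, the Rev-erb receptors Nr1d1 and Nr1d2 belong to the circadian clock, and SMAD proteins carry signals of the TGF-β and BMP ligands to the nucleus.

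The mice were F1 offspring of the inbred strains C57BL/6J (B) and DBA/2J (D), bred in both directions and fed chow, so that each animal carried 1 B and 1 D copy of every autosomal gene and each read over a SNP could be given to a strain. RNA from the gonadal fat pad was sequenced in 4 pools, labelled by cross and sex, in the order used below, as BxD female, then DxB female, and for males BxD male and, last, DxB male. Each pool held 3 animals, except the pool labelled DxB female with 2. The labels give an age of 8 weeks and the study's methods a later one. Each pool gave a B and a D count, hence 8 allele libraries, and the spread between them is a spread between pools of animals, not between single mice.

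The pools held 4333238, 4217494, 4173647 and 3403426 counted reads over exonic autosomal SNPs in the order above, of which 41355, 36621, 38887 and 31764 fell in the 81 genes. Of 8 adipocyte markers 4 had SNP reads, at 116838 to 152240 CPM summed (CPM, counts per 1000000 counted reads of a pool); Adipoq, Fabp4, Plin1 and Pnpla2 had none. Reads of 2 of 6 epididymis markers were found in the DxB male pool alone, at 60.2 CPM. Label and file name disagree for 2 pools. In the pool labelled DxB female a median of 100% of the reads of X-linked genes (34 genes with at least 50 reads) came from B, and in the pool labelled BxD male the median was 55.1%, against 50.2% in the BxD female and 0.432% in the DxB male pool. Meg3, an imprinted gene read from the maternal copy, had 253 B and 1 D reads in the pool labelled DxB female and 9 B and 360 D reads in the pool labelled BxD male. Both measures go against these 2 labels. The comparison of D with B uses every pool in the same way and does not depend on cross or sex, while the comparisons by parent and by sex are given under both identities.

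Of the 81 genes, 80 had a SNP that can tell the strains apart, since the single exonic SNP of Med6 lists the same base for B and D. They carried 399 counted SNPs, with 1 SNP in 18 genes, a median of 3 and a maximum of 36 in Thrb. A total of 69 genes had at least 20 reads over the 4 pools. The 12 below that were Esr2 (18 reads), Med22 (19 reads), Nr0b2 (7 reads), Smad9 and Tcf3 (5 reads each), Foxa2 and Med28 (4 reads each), Foxa3 and Foxn4 (3 reads each), Nr5a1 (2 reads), Gata4 (1 read) and Med6. Several factors at the centre of adipocyte biology are not among the 81 because no exonic SNP was listed under their symbols: of 49 such factors fixed as a list, 30 are members and 19 are not, the latter with Pparg, Ppard, Rxra, Srebf1, Cebpb, Cebpd, Klf15 and Foxo1. Factors were matched by symbol alone, so a factor listed under another symbol would count as missing.

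The SNPs on which the results turn are shown first, as 25-base windows of the plus strand of the mouse genome build NCBIM37 (mm9). In each the capital letter is the SNP, at position 13 from the left, in the B form, and the code before the sequence gives the B base, the position and the D base. Nr1d2, Tcf12, Nr2f6, Nr1h2, Nr1d1 and Klf4 are read from the minus strand, so their transcripts carry the complement of the window shown. At all 399 counted SNPs the reference base was the B base. The first group is the deepest SNP of each gene whose alleles differed in D against B reads over the whole gene. In Srebf2, Foxn2, Tcf7l2, Foxc1 and Nr1d2 that SNP had no D read, and in the others both alleles were read.
Srebf2, 5′ untranslated exon, chr15:81977759-81977783, C13G: gggcggtggcggCggtaccgcctcc
Foxn2, 5′ untranslated exon, chr17:88840172-88840196, C13G: ttgtgtctggccCggcccggccctc
Tcf7l2, coding exon, chr19:55817664-55817688, A13G: tcgctctcgcccAccgcccgaaccg
Foxc1, coding exon, chr13:31900356-31900380, A13G: gcgcggcggtggAcgaccccctgcc
Nr1d2, 5′ untranslated exon, chr14:19071425-19071449, T13G: gcgggcggctccTgggggccgcacg
Smad5, 3′ untranslated exon, chr13:56843321-56843345, A13G: cagagagaagctAaagcatggggag
Thra, coding exon, chr11:98624962-98624986, A13G: ggttaagcgggaAcagctcaagaat
Tcf12, coding exon, chr9:71697639-71697663, T13C: cctggcaacgtgTtgggcggctctg
Klf9, 3′ untranslated exon, chr19:23240249-23240273, G13T: tagaagccgacgGtctgtttggcac
Nr2c2ap, 3′ untranslated exon, chr8:72657196-72657220, C13T: ttgcggagggctCttcccaccactg
Nr2f6, 3′ untranslated exon, chr8:73898155-73898179, T13C: acaccagaggcaTcagcatgctggc
Med10, 3′ untranslated exon, chr13:69954633-69954657, A13G: ccttccagccacAtgaactggcctg
Nr1h2, coding exon, chr7:51806696-51806720, G13A: tggacgccttcaGgagggcgatctg

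The second group, chosen after the values were seen, holds SNPs at which the D share was far from that of another SNP of the same gene. The D base was all but missing at each of them except the second of Cebpa, which both strains shared evenly, and that of Med10, where D was the more frequent.
Cebpa, coding exon, chr7:35904879-35904903, G13C: gtcggggcgcccGcgctacggccgc
Cebpa, coding exon, chr7:35905073-35905097, G13A, read evenly from both strains: caccatgcacctGcagcctggccac
Nr1d1 and Thra, 3′ untranslated exon of Nr1d1, chr11:98629342-98629366, T13G: ggagcatggcggTgggggtggggga
Klf4, 5′ untranslated exon, chr4:55545086-55545110, C13G: ccgggcggtgggCgggcggcgccgc
Nr2f6, 5′ untranslated exon, chr8:73905488-73905512, G13C: gggccatggcccGgccccgccgccc
Tcf12, 5′ untranslated exon, chr9:71959394-71959418, A13G: gctccgcatccaAccttcccgatta
Klf9, 5′ untranslated exon, chr19:23215929-23215953, A13C: aataaacttgcgAccgccacgtgtg
Smad5, coding exon, chr13:56829929-56829953, T13C: ccagcctatggaTacaagcagtaac
Med10, coding exon, chr13:69948856-69948880, G13A: ggagaacattcgGcagctcggcatc

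The main comparison asks which of these genes were read more from one strain's copy than from the other's. Alleles differed in 13 of 80 genes, 11 with more B and 2 with more D reads (edgeR quasi-likelihood test over all 7927 autosomal genes with reads, Benjamini-Hochberg adjusted p under 0.05). Over all autosomal genes tested 18.3% passed the same test, 13.5% with B higher and 4.81% with D higher, so the share among the 80 genes, 16.2%, was near the background. Of all counted reads D gave 46.5% (BxD female), 46.9% (labelled DxB female), 45.6% (labelled BxD male) and 46.7% (DxB male). The study describes a bias towards mapping B reads and states that its power was greater for higher B than for higher D. How far this bias shaped the splits between B and D calls, here and below, was not tested. Values are log2 ratios of D to B, negative where B was higher, after scaling of the 8 libraries, which moved every ratio up by 0.112 on average because the D libraries were smaller. The median over the 80 genes was -0.06, against -0.04 over all genes. With each pool taken as a block, so that the 2 alleles of the same animals were compared with each other, 25 of 80 genes passed (20 with B higher and 5 with D higher), against 32.6% of all genes (12.6% with D higher), and these included the 13. The 12 genes added were Cebpa, Nr1d1, Esrra, Klf4, Ncoa3, Tcf4, Smad7, Smad6 and Foxj1 with B higher and Klf13, Med13l and Thrb with D higher. Without the 2 pools whose labels are in doubt 8 genes passed, 7 with B higher and 1 with D higher, against 10.1% of all genes (8.47% and 1.58%). The calls of Klf9, Nr1h2, Nr2c2ap, Nr2f6 and Tcf12 were those lost in that smaller set.

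**Figure D1:**
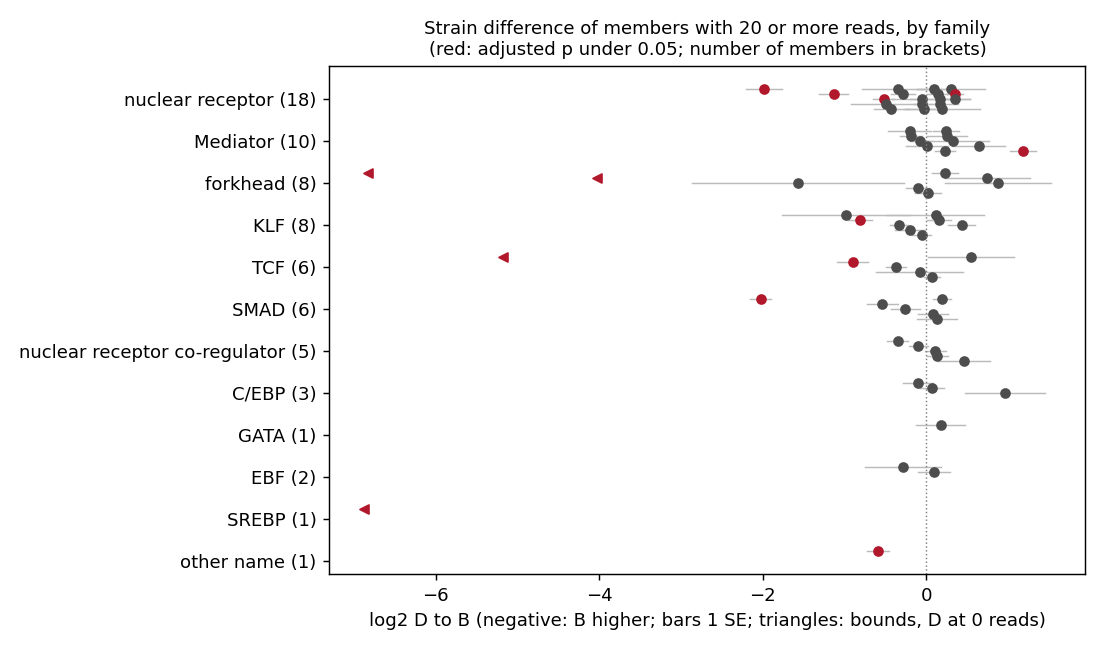
Log2 ratio of D to B reads (x axis) for the 69 genes with at least 20 reads, by family (y axis); bars are 1 SE, red marks the genes past the test, and triangles are bounds from raw reads for genes with no D read. Most genes sit near 0, the 4 triangles lie at the far left, and Med10 (1.19) is the red point furthest to the right.

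**Figure D2:**
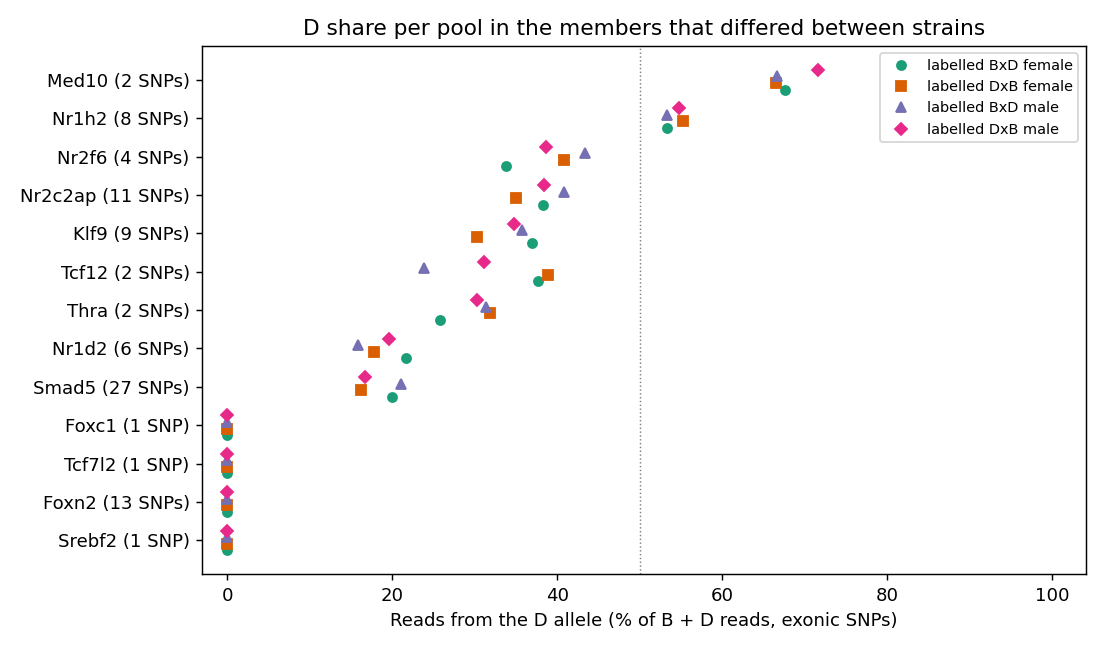
Share of reads from the D allele (x axis, percent) in each of the 4 pools for the 13 genes that passed the test (y axis). Srebf2, Foxn2, Tcf7l2 and Foxc1 are at 0 in every pool, and Med10 and Nr1h2 are the only ones above 50% in all of them.

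Nuclear receptors gave 4 of the 13. Nr1h2, the liver X receptor β, had 1897 B and 2164 D reads in the BxD female pool, 1565 and 1929 in the pool labelled DxB female, 1643 and 1876 in the pool labelled BxD male, and 1309 and 1585 in the DxB male pool. D was higher in 4 of 4 pools, with D shares between 53.3% and 55.2%. The log2 ratio was 0.35 (SE 0.09, edgeR adjusted p = 0.0213), a fold of 1.28. Its call was lost when 1 library size was used for both alleles of a pool (0.24, edgeR adjusted p = 0.162) and when any pool but BxD female was left out. Of its 8 SNPs, 2 synonymous ones passed when SNPs were tested singly: chr7 position 51806179 with 648 B and 1161 D reads, and position 51806708, shown above, with 1252 B and 1879 D reads. At position 51805153 in the 3′ untranslated region the counts were 865 B and 861 D. The shares at single SNPs of Nr1h2 ran from 45.8% to 64.2% D. Its relative Nr1h3, the liver X receptor α, had 2129 B and 1916 D reads and a log2 ratio of -0.05 (edgeR adjusted p = 0.845).

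Thra and Nr1d1 lie tail to tail on chromosome 11, on opposite strands, and share a SNP in the files. Thra, a thyroid hormone receptor, had D shares of 25.8%, 31.8%, 31.3% and 30.3% in the 4 pools in the order above and a log2 ratio of -1.13 (SE 0.18, edgeR adjusted p = 0.000542). It rests on 2 SNPs. The coding one, in the window shown, had 523 B and 510 D reads, a D share of 49.4%, and the other, at position 98629354, had 698 B and 3 D reads. The same 701 reads are listed under Nr1d1, the Rev-erbα receptor, whose 3′ untranslated exon holds that position in the GENCODE M1 annotation, while in Thra it is intronic. At its other SNP Nr1d1 had 1465 B and 1492 D reads. Left without the shared SNP, Thra had a log2 ratio of 0.11 and Nr1d1 one of 0.16, and neither passed.

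Nr1d2, the Rev-erbβ receptor, had 83, 60, 74 and 49 B reads and 23, 13, 14 and 12 D reads in the 4 pools. All pools were far on the B side, with D shares from 15.9% to 21.7%, and the log2 ratio was -1.98 (SE 0.22, edgeR adjusted p = 2.78e-05), a fold of 3.95. Most of the B excess lay at 1 SNP in the 5′ untranslated exon, with 178 B and 0 D reads. A coding SNP had 46 B and 2 D reads, and a 3′ untranslated SNP had 37 B and 56 D reads. Nr2f6, an orphan receptor of the COUP-TF group, had D shares of 33.8%, 40.8%, 43.3% and 38.7% and a log2 ratio of -0.52 (SE 0.13, edgeR adjusted p = 0.0122). Its 5′ untranslated SNP had 65 B and 0 D reads, and its 3 other SNPs had D shares from 37.7% to 45.2%, all on the B side. Without the BxD female, the DxB male or the pool labelled DxB female the edgeR adjusted p of Nr2f6 was 0.0902, 0.0897 or 0.0632.

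The other 17 nuclear receptors did not pass. Deep ones besides Nr1d1 and Nr1h3 were Thrb, the second thyroid hormone receptor (2036 B and 2427 D reads, log2 0.36) and Esrra, an estrogen-related receptor of mitochondrial genes (1075 B and 816 D reads, log2 -0.28). Thrb had D shares of 54.3%, 56.4%, 54.9% and 50.5%, above 50% in every pool, and Esrra shares of 42.8%, 45.0%, 41.1% and 44.6%. Neither passed with alleles unpaired (edgeR adjusted p = 0.243 and 0.256), and both passed with the pool as a block (edgeR adjusted p = 0.000749 and 0.0115). The estrogen receptor Esr1 had 520 B and 546 D reads. Rxrb, a common dimer partner of the others, had 460 B and 466 D reads, and the glucocorticoid receptor Nr3c1 had 234 and 238. Ppara, the fatty acid receptor, had 173 B and 111 D reads with D shares from 30.6% to 52.5%, pools on both sides of 50%.

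Among the Mediator genes 1 of 12 with a usable SNP passed. Med10, a subunit of the middle module, had 70 B and 146 D reads in the BxD female pool, 54 and 107 in the pool labelled DxB female, 62 and 124 in the pool labelled BxD male, and 35 and 88 in the DxB male pool. In every pool D was at 66.5% or more. The log2 ratio was 1.19 (SE 0.16, edgeR adjusted p = 0.000139), a fold of 2.28, and the call held with each pool left out. The size differed along the gene: the coding SNP had 68 B and 254 D reads (78.9% D) and the 3′ untranslated SNP 153 B and 211 D reads (58.0% D), which did not pass singly (edgeR adjusted p = 0.126) unless the pool was a block (edgeR adjusted p = 0.00706). Med13l, of the kinase module, was the deepest Mediator gene with 925 B and 1004 D reads, a log2 ratio of 0.23 that passed only with the pool as a block (edgeR adjusted p = 0.0268). Med1, the subunit that binds nuclear receptors, had 392 B and 436 D reads and did not pass.

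Of the 5 co-regulators none passed in exons. Ncor1, a co-repressor, had 3139 B and 2704 D reads, and Ncoa2, a co-activator, 628 and 635. Ncoa3, another co-activator, had 1372 B and 1014 D reads (log2 -0.35, edgeR adjusted p = 0.0935). With alleles unpaired it was the only gene with single SNPs passing in opposite directions, and with the pool as a block Smad5, Tcf25 and Thrb had such SNPs too. Within the 3′ untranslated exon of Ncoa3, position 165895726 on chromosome 2 had 450 B and 178 D reads, and position 165896671 had 53 B and 97 D. At the first the D share was 23.2% to 36.0% and at the second 60.6% to 67.2%, with no overlap among the pools.

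Of the KLF genes 1 of 8 passed. Klf9, a factor induced by glucocorticoid and thyroid hormone, had 878 B and 514 D reads in the BxD female pool, 776 and 338 in the pool labelled DxB female, 787 and 438 in the pool labelled BxD male, and 493 and 263 in the DxB male pool. B was higher in 4 of 4 pools, and the D share ranged from 30.3% to 36.9%. The log2 ratio was -0.81 (SE 0.14, edgeR adjusted p = 0.00148), a fold of 1.75. Of its 9 SNPs 5 passed singly, all with B higher, spread over both untranslated ends of the transcript. The 5′ untranslated SNP shown in the second group had 252 B and 0 D reads and the one 23 bases further 311 B and 61 D, while the 2 SNPs nearest the 3′ end had 175 B against 184 D and 71 against 72. Klf4, a factor of early adipogenesis, had 2041 B and 1492 D reads (log2 -0.33, edgeR adjusted p = 0.0658), of which 321 B and 0 D reads lay at 1 SNP in the 5′ untranslated exon. Klf13 had 859 B and 1085 D reads and passed only with the pool as a block (edgeR adjusted p = 0.000523). Its synonymous SNP at position 71036565 had 495 B and 783 D reads, and both 5′ untranslated SNPs with 20 or more reads had more B than D.

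Cebpa, the C/EBP factor that keeps adipocytes differentiated, was the deepest of the 81 genes with 31163 reads and D shares of 47.0%, 45.8%, 46.1% and 46.8%. Its 2 SNPs lie 194 bases apart in the single coding exon. The synonymous one had 14407 B and 14454 D reads, 50.1% D, and the non-synonymous one had 2299 B and 3 D reads. Summed, the log2 ratio was -0.09 (SE 0.18, edgeR adjusted p = 0.796). With the pool as a block the summed ratio passed with B higher (-0.10, edgeR adjusted p = 0.0277), and with SNPs under 1% from one allele also left out, so that only the synonymous SNP remained, it passed with D higher (0.09, edgeR adjusted p = 0.0397). The raw reads of that SNP are all but even, so the 0.09 reflects the scaling of the libraries and not an excess of D reads. Tested as a single SNP with the block the synonymous SNP did not pass (edgeR adjusted p = 0.0665). Ebf1, a factor upstream of Pparg and Cebpa, had 320 B and 318 D reads.

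Smad5, which carries BMP signals, had 1505 B and 376 D reads in the BxD female pool, 1438 and 278 in the pool labelled DxB female, 1160 and 310 in the pool labelled BxD male, and 947 and 190 in the DxB male pool. Its log2 ratio was -2.03 (SE 0.13, edgeR adjusted p = 2.61e-07), and the D share stayed between 16.2% and 21.1%. The transcript fell into 2 stretches. Over 17 SNPs with 20 or more reads, from position 56824947 in the 5′ untranslated exon through the coding exons to position 56839105 early in the 3′ untranslated exon of chromosome 13, there were 4026 B and 5 D reads, with at most 2 D reads at a SNP. Over the 7 SNPs beyond, from 56839220 to 56843333, there were 1013 B and 1143 D reads, with D shares from 46.2% to 61.1%. The 2 Smad5 windows shown come from either side of that point, which was chosen after the values were seen. Of the other SMAD genes, Smad4, the partner shared by both ligand pathways, had 1167 B and 1230 D reads, and Smad7, an inhibitor of TGF-β signalling, had 459 B and 293 D reads (log2 -0.54, edgeR adjusted p = 0.0793), with no D read among 177 at 2 of its 4 SNPs.

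The factors without any D read were Srebf2, Foxn2, Tcf7l2 and Foxc1. Srebf2, the SREBP of cholesterol synthesis, had 91, 103, 68 and 92 B reads in the 4 pools at its single SNP, in the 5′ untranslated exon. Against a floor of 3 reads over the pools B was at least 118-fold higher there, and a D share of up to 0.847% is allowed by counting error. Foxn2, a forkhead factor, had 118, 82, 79 and 63 B reads over 13 SNPs from the 5′ to the 3′ untranslated end, at least 114-fold more than D. Tcf7l2, an effector of Wnt signals, had 37, 28, 27 and 17 B reads at 1 coding SNP, at least 36.3-fold more than D. Foxc1 had 16, 9, 16 and 8 B reads at 1 coding SNP, at least 16.3-fold more. All 4 passed (edgeR adjusted p = 1.58e-06, 7.68e-07, 2.59e-05 and 0.000443). The study Sanger-sequenced D DNA at some SNPs of other genes read from B alone and found the B base at each. SNPs of these 4 genes are not among those it lists, and whether D carries the listed base at them was not tested. Introns of the same genes gave another reading where they had reads: Tcf7l2 had 42 B and 32 D intronic reads and Srebf2 had 7 B and 6 D.

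Tcf12, a basic helix-loop-helix factor, had D shares of 37.7%, 38.9%, 23.9% and 31.1% and a log2 ratio of -0.90 (SE 0.19, edgeR adjusted p = 0.00471). Its 5′ untranslated SNP had 188 B and 0 D reads and its coding SNP 174 B and 181 D. Tcf4, of the same class, had 1287 B and 917 D reads and did not pass (edgeR adjusted p = 0.0527), with 212 B and 4 D reads at 1 SNP in the 3′ untranslated exon and D shares of 45.1% to 48.0% at its 3 coding SNPs. Tcf25, the deepest gene named Tcf, had 7899 B and 7683 D reads.

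Nr2c2ap had D shares of 38.3%, 35.0%, 40.8% and 38.4% and a log2 ratio of -0.59 (SE 0.13, edgeR adjusted p = 0.00719). Its B excess followed the annotation. Of its 11 counted SNPs 7 lie in introns of GENCODE M1 though the files call them exonic, and they held 348 B and 119 D reads (25.5% D). With SNPs chosen by the annotation column of the files in place of the exon column, the log2 ratio was -0.26 (edgeR adjusted p = 0.307), and without the pool labelled DxB female the call was lost (edgeR adjusted p = 0.0824). Over all members, 11 of the 399 SNPs, in 5 genes, were not placed in an exon of the gene in GENCODE M1. Of these genes Tcf3, listed on chromosome 6, was not matched by name to a GENCODE M1 gene there, so its SNP could not be placed.

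Across the members, 37 gene entries of SNPs with at least 20 reads had under 1% of their reads from D, at 36 positions because Thra and Nr1d1 share 1. They held 9664 B and 12 D reads. No member SNP with at least 20 reads had under 1% from B. Of all member positions with at least 20 reads, 11.2% were of this kind, against 4.48% over all autosomal genes. In the 5′ untranslated class it was 12 of 31 positions in members (38.7%) and 14.3% over all genes. These shares are a description: the positions of a gene share their transcript, and Smad5 and Foxn2 together held 22 of the 36. They were spread over 16 genes, and in 12 of these other SNPs were read from both alleles. Transversions, changes between a purine and a pyrimidine, made up 47.2% of the 36 and 20.1% of the 284 positions read from both alleles, and the median share of G and C in the 25 bases was 52% and 56%. Leaving out Smad5 and Foxn2, a choice made after the values were seen, the 14 positions with under 1% D had a median of 84% G and C in their 25 bases and the 276 positions with both alleles 56%, and 71.4% of the first and 19.9% of the second were transversions.

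**Figure D3:**
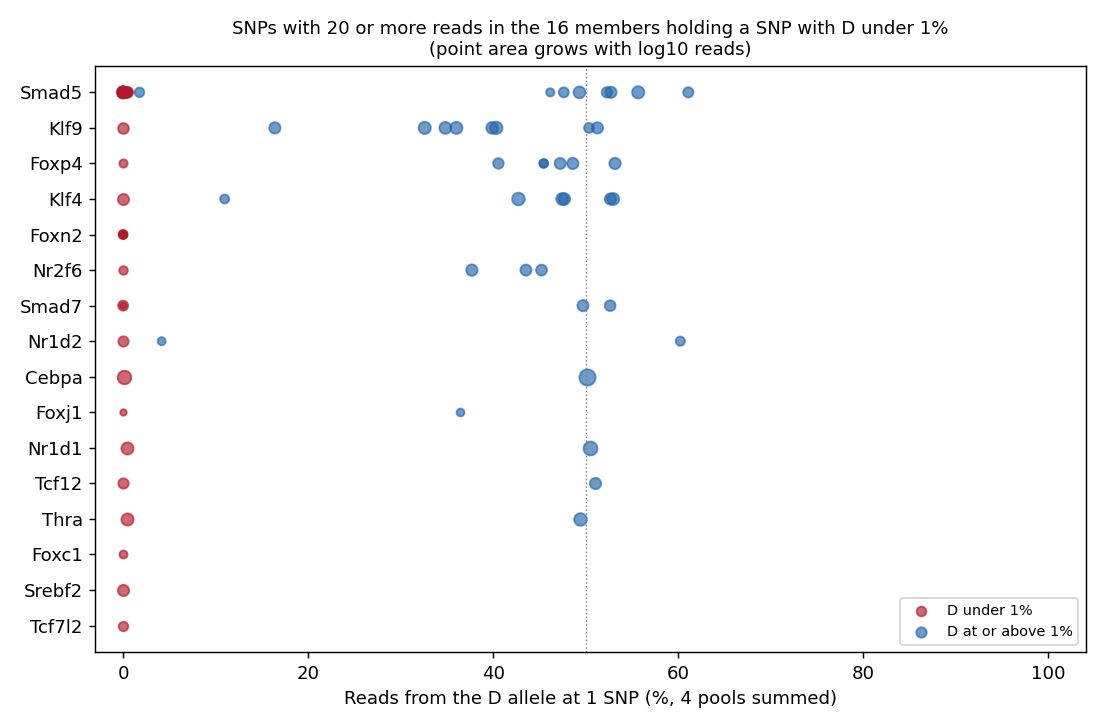
Share of reads from D (x axis, percent, pools summed) at each SNP with 20 or more reads, for the 16 genes (y axis) holding a SNP with under 1% D; red points are those SNPs, blue points the others, and point area grows with the logarithm of the reads. Cebpa, Nr1d1, Thra and Tcf12 each show 1 red point at 0 and 1 blue point near 50%.

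When SNPs with under 1% of their reads from one allele were left out, 4 of 70 genes passed, Klf9 and Nr2c2ap with B higher and Med10 and Nr1h2 with D higher, against 9.55% of all genes (5.81% with B and 3.74% with D higher). Srebf2, Foxn2, Tcf7l2 and Foxc1 then had no SNP left, and 5 genes no longer passed. Smad5 moved from -2.03 to 0.10, Thra from -1.13 to 0.06, Tcf12 from -0.90 to 0.12, Nr1d2 from -1.98 to -0.43 and Nr2f6 from -0.52 to -0.39. Klf9 kept a log2 ratio of -0.71 (SE 0.15, edgeR adjusted p = 0.0103) and Med10 one of 1.16 (SE 0.15, edgeR adjusted p = 0.000533). SNPs are left out here by their own allele counts, in both directions, so the second set of values is read beside the first and not in its place. With the pool as a block as well, 13 of 70 passed, 8 with B and 5 with D higher, against 27.9% of all genes (14.7% and 13.2%).

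**Figure D4:**
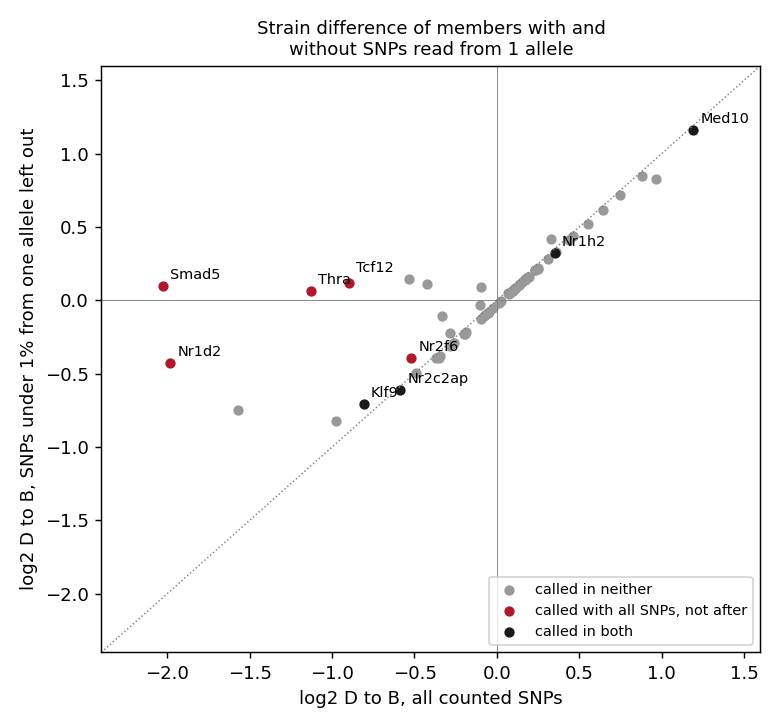
Log2 ratio of D to B over all counted SNPs (x axis) and without SNPs read under 1% from one allele (y axis) for 65 genes with at least 20 reads; black genes passed both times, red ones only with all SNPs. Smad5, Thra, Tcf12 and Nr1d2 lie far above the dotted line of equality, and Med10 and Nr1h2 lie on it.

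Tested one by one, 68 of the 399 SNPs passed, 61 with B and 7 with D higher, in 29 genes, against 12.6% of all 45204 exonic SNPs (8.76% with B and 3.82% with D higher). The 7 with D higher included the 2 of Nr1h2 and those named above of Med10, Klf13 and Ncoa3. Klf11, another Krüppel-like factor, had one with 83 B and 150 D reads. At the 3′ untranslated position 119300689 of Foxj3 there were 5 B and 41 D reads, while 5 other SNPs of that gene with 20 or more reads had D shares from 44.2% to 53.0%. At a 3′ untranslated SNP of Klf2, a factor that holds back adipogenesis, there were 174 B and 51 D reads. These 2 SNPs were chosen after their values were seen.

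Intronic reads fall on SNPs that the files place in introns and that the exonic counts do not use. They can come from unspliced RNA, but these SNPs were not checked against GENCODE M1. In the intronic test 5 of 67 members passed, all with B higher, against 11.9% of all 9422 genes (7.57% with B and 4.36% with D higher). Klf9 was the only gene past the threshold in both, with 537 B and 316 D intronic reads and a log2 ratio of -0.67 (SE 0.19, edgeR adjusted p = 0.00448). Ncor1 had 437 B and 268 D intronic reads (log2 -0.62, SE 0.19, edgeR adjusted p = 0.0132), of which 122 B and 15 D fell on 1 SNP. Ncoa2 had 241 B and 132 D (log2 -0.74, SE 0.23, edgeR adjusted p = 0.0156), Klf4 130 and 64 (log2 -0.90, SE 0.30, edgeR adjusted p = 0.0268), and Nr3c1 79 and 27 (log2 -1.38, SE 0.40, edgeR adjusted p = 0.00653). Of the Nr3c1 reads, its 2 deepest counted SNPs gave 21 and 17 B and no D reads. Without SNPs under 1% from one allele only Klf9 and Ncor1 passed, against 6.45% of all genes. With the pool as a block 10 passed, 3 of them with D higher, against 14.5% of all genes. Without the 2 pools in doubt 0 passed in edgeR, with 6 at an unadjusted p under 0.05, against 5.42% of all genes. Med10 and Nr1h2, higher from D in exons, had intronic ratios of 0.11 (SE 0.25) and -0.11 (SE 0.20).

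**Figure D5:**
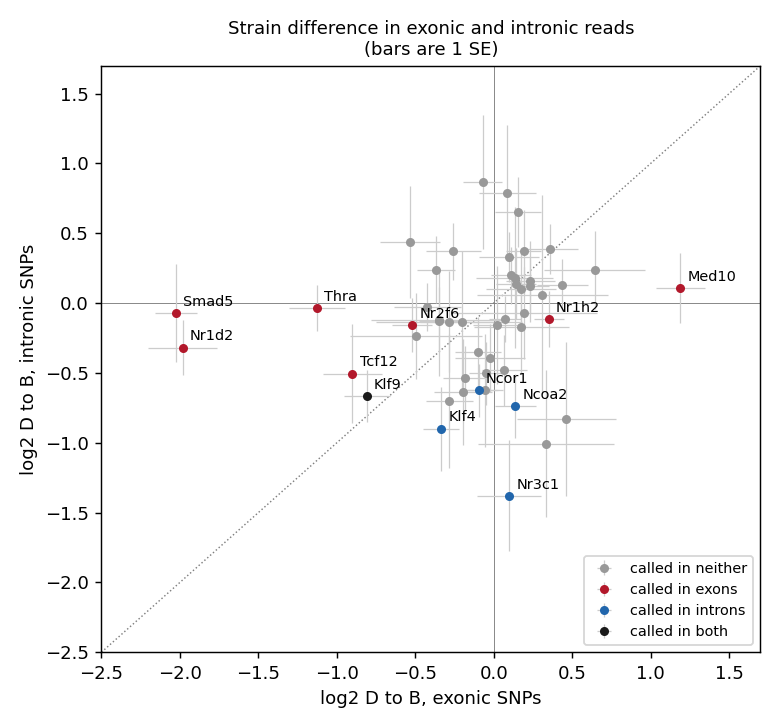
Log2 ratio of D to B in exonic (x axis) and intronic reads (y axis) for 50 genes with at least 20 reads in each and with D reads in exons; bars are 1 SE. Klf9 is the only black point, past the test in both, red points passed in exons, blue ones in introns, and Smad5, Thra and Nr1d2 lie far left but near the line of 0 on the intronic axis.

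With alleles unpaired, most of the genes showed no strain difference that 4 pools could separate. Of the 56 genes with at least 20 reads that did not pass that test, 48 had a log2 ratio within 0.5 of 0. With the pool as a block 25 of 80 genes passed, against 32.6% of all genes. Those it added, Smad7 and Foxj1 among them, are counted here as not passing. Outside 0.5 in the unpaired test were the remaining 8, Cebpe, Foxj1, Foxm1, Foxo6, Klf1, Med26, Smad7 and Tcf19, of which Smad7 alone had more than 200 reads. For the 40 genes with at least 100 reads in every pool the median SD of the D share over the 4 pools was 2.47 percentage points. A gene that did not pass is not shown to be read equally from both strains.

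Parent of origin was tested because the crosses were made in both directions. Under the labels 0 of 80 members passed in edgeR (1 at an unadjusted p under 0.05) and 0 in DESeq2, against 0.0% of all genes, and under the identity in the file names 0 passed (0 at an unadjusted p under 0.05), against 0.0505%. If the file names are right, the label-based groups mix maternal and paternal copies, and a parent effect would cancel in that comparison. A difference of the strain ratio between sexes was also not detected: 0 members passed under the labels (0 at an unadjusted p under 0.05, 0 in DESeq2), against 0.101% of all genes, and 0 under the file names (1 at an unadjusted p under 0.05), against 0.0%. By the file names both pools labelled female are BxD and both labelled male are DxB. If these are right, the label-based term compared the crosses and not the sexes, also for the 0.101% of all genes.

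Levels were compared between sexes on B and D reads summed, 2 pools against 2. In whole tissue, fewer cells of a type and less RNA per cell cannot be told apart. Under the labels 0 members passed in edgeR (4 at an unadjusted p under 0.05) and 0 in DESeq2, against 0.0% of all genes. If the file names are right, each labelled sex holds a male and a female pool, and a sex difference would cancel there. Under the file names 2 of 80 passed, against 2.52% of all genes. Klf5, an early adipogenic factor, had 26.5 and 10.8 CPM in the BxD female pool and the pool labelled BxD male, and 5.22 and 4.99 CPM in the pool labelled DxB female and the DxB male pool. The pools called male by file name were lower, with a log2 ratio of male to female of -1.76 (SE 0.40, edgeR adjusted p = 0.0346), and the 2 pairs did not overlap. Of 3 mesothelial markers 1, Upk1b, had reads, and it was also highest in the BxD female pool and the pool labelled BxD male (25.6 and 13.2 CPM, against 7.82 and 7.05 CPM), and its part in the level of Klf5 was not tested. Foxj1, a factor of ciliated cells, had 48 reads in the pool labelled DxB female, 19 in the DxB male pool and none in the other 2 (edgeR adjusted p = 0.00158). The 2 pools with Foxj1 reads are those the file names call male. Of these the DxB male pool also held the epididymis marker reads given above and the other held none; their part in the level of Foxj1 was not tested.

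Target genes of these factors in fat were read from a list of 35 fixed genes, of which 15 had exonic SNP reads. By the same test 3 of 15 passed, against 18.3% of all genes. Of these 2 were higher from B, Abcg1, the sterol exporter induced by liver X receptors (log2 -1.75, SE 0.17, edgeR adjusted p = 7.71e-06), and Lpin1, a phosphatidate phosphatase (log2 -0.93, SE 0.20, edgeR adjusted p = 0.00437). Acaca, acetyl-CoA carboxylase, was higher from D (log2 0.79, SE 0.12, edgeR adjusted p = 0.000502), and 12 did not pass, with Lpl, lipoprotein lipase, at 0.48 (edgeR adjusted p = 0.0532). The same 3 passed without SNPs under 1% from one allele. The study states that the alleles of an F1 animal share their cellular environment. An allele ratio of a target therefore does not measure the level or activity of a factor, and a link to the factors was not tested.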

How the data were processed

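Per the labels and the study's methods, polyadenylated RNA of 4 pools was sequenced in pairs of short reads. The authors treated mates as single reads, aligned them to mm9 with up to 3 mismatches, mapped the rest with TopHat (version 1 in the submitters' processing notes, which also name CASAVA), and kept uniquely mapped reads. The methods describe masking of the D variants; whether these files come from the masked alignment is not given in the sources used here. The values deposited by the authors are raw counts of B and D reads per SNP.

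From these, SNPs the files mark as exonic on chromosomes 1 to 19 were taken, those listing 1 base for both strains were dropped, SNPs of an exon lying under 18 bp from one already kept were skipped, and B and D counts were summed per gene. D was set against B over 8 allele libraries with edgeR 4.0.16 (TMM, quasi-likelihood, Benjamini-Hochberg over all genes) in R 4.3.3. The fits were also run on simulated counts, drawn independently for each library. Those runs cannot show how the unpaired test handles the correlated alleles of a pool. DESeq2 1.42.0 and the other alternatives are in the closing section. SE is the size of the log2 ratio divided by the root of F. B and D libraries of a pool come from the same animals; over 5317 genes their deviations from the strain means correlated at 0.489 to 0.617. Genes named are all members past the exonic strain test with at least 20 reads and the list of 49 factors, with exceptions stated. Members and lists were chosen with earlier results of these data known. Floors of 3 reads and all shares cover counting error only, since mates count as separate reads and PCR copies were not removed. Feature positions are from GENCODE M1, bases from NCBIM37.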

Additional observations from a re-analysis of the deposited data

Results flagged for a closer look

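Reads outside the exonic comparisons were found for 3 central factors that have no exonic SNP. Pparg had 20 intronic reads, 9 from B and 11 from D. Ppard had 12 intronic reads and Rxra 5, all from B. A count of 0 would allow up to 3 reads, and 20, 12 and 5 lie above it. These reads give no level of the spliced transcripts. In 33 named members no pool stood apart from the other 3 by Dixon's criterion.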

How the results depend on the processing

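The count of members whose alleles differed in exons, 13 (11 with B and 2 with D higher), was 4 (2 with B higher) without SNPs under 1% from one allele, 25 (20 and 5) with the pool as replicate block, 8 (7 and 1, added after seeing the data) without both pools in doubt, and 10 to 13 with 1 pool left out, with D higher in 1 or 2. Over all genes 13.8% to 15.9% passed with 1 pool left out. With 1 library size per pool 1 had D higher, against 3.05% of all genes. With the block and without SNPs under 1% 5 had, against 13.2%. The intronic count of 5 was 2 without SNPs under 1%, 3 with DESeq2, 4 (3 with B and 1 with D higher) with at least 10 reads per gene, 10 (3 with D higher) with the block, 1 to 4 with 1 pool left out, and 0 without both pools in doubt. Over all genes 8.37% passed in introns with DESeq2 and 14.7% with at least 10 reads per gene. The intronic count was 1 without the pool labelled DxB female, 2 without DxB male, 3 without BxD female and 4 without the pool labelled BxD male. The shares over all genes were 8.74%, 9.83%, 9.45% and 8.85% in that order. The sex comparison went from 0 to 2 (1 lower and 1 higher in males) under the file names. With the block 68 SNPs had B higher and 19 D higher, against 61 and 7, and over all exonic SNPs those with D higher went from 3.82% to 7.97%. The direction turned for Smad5 (0.10 without SNPs under 1%, 0.094 with the block as well), Thra (0.063 and 0.054, 0.037 by the annotation column and 0.11 without SNPs listed under several genes), Tcf12 (0.12 and 0.12, and 0.16 without SNPs listed under several genes) and Cebpa (0.089 without SNPs under 1%, 0.087 with the block as well). Of the genes that passed only with the block, Nr1d1 (0.11 without SNPs under 1%, 0.16 without SNPs listed under several genes) and Smad7 (0.15 without SNPs under 1%) turned too. Removing 1-allele SNPs is the construction of the first of these settings, with or without the block. Leaving out SNPs listed under several genes took the same 1-allele SNP from Thra, Tcf12 and Nr1d1. For the annotation column the cause was not tested. Of the alternatives for the 13 named genes that passed, 212 values kept direction and call, 18 lost the call and 9 turned; of those for the named genes that did not, 427 stayed, 20 gained the call, 7 moved with no call in either setting, some of them across 0, and 1 turned with a call. Calls were lost for Nr1h2, Nr2c2ap and Nr2f6 with 1 pool left out. The sex comparison could not be run without both pools in doubt, since 1 pool is left per sex. In the label-based comparisons by parent and of the strain ratio by sex the block changed no call, and the sex comparison of levels has no allele pairs to block.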
